A study of Rattus norvegicus with 18 samples.

Results

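miR-133a and miR-133c are represented by 3 of the 909 entries in a count table of small RNA from rat gastrocnemius, a calf muscle: rno-miR-133a-3p, rno-miR-133a-5p and rno-miR-133c. They were chosen by name, as every entry called miR-133a or miR-133c with any arm. This rule used no values, though earlier results of these data were known. All 3 were counted in all 18 libraries and passed the minimum of 10 counts in every comparison. The libraries came from male Brown Norway rats, 1 rat each, so that replicates are separate animals. Young AL rats (replicates 1 to 6) were fed ad libitum and killed at 6 months. Old AL rats (replicates 7 to 12) had the same diet and were killed at 28 months. Old CR rats (replicates 13 to 18) were also killed at 28 months, after caloric restriction to 55% of the ad libitum intake. All rats were of a single sex and an inbred strain, whole muscle was extracted, and no young rats on caloric restriction are among these samples, so that diet could be compared only in old animals.

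miRNAs are short RNAs that pair with messenger RNAs, mostly through the seed near their 5′ end, and lower the output of those messengers. miR-133a belongs to the group of miRNAs enriched in skeletal and heart muscle, often called myomiRs, and is made from transcripts that also carry miR-1. In cultured myoblasts miR-133 is known to favour proliferation, with serum response factor among its described targets, while miR-1 favours differentiation. miR-133b, a close relative, is made from another transcript together with miR-206. Each miRNA hairpin can give a product from its 5′ arm (5p) and from its 3′ arm (3p), of which usually 1 predominates.

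All 3 members had a mature sequence in the RefSeq table for the rat assembly GRCr8, and these sequences show why their counts cannot be read as 3 separate measurements. They are printed 5′ to 3′ with the seed, bases 2 to 8, in capitals, beside those of miR-133b and of miR-1-3p, the miRNAs used for comparison.
miR-133a-3p (chr18:2157886-2157907, minus strand): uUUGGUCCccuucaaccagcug
miR-133a-5p (chr18:2157923-2157944, minus strand): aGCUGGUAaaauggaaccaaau
miR-133c (chr18:2157886-2157906, plus strand): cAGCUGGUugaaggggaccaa
miR-133b-3p (chr9:30594629-30594650, plus strand): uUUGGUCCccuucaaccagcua
miR-133b-5p (chr9:30594592-30594612, plus strand): gCUGGUCAaacggaaccaagu
miR-1-3p (chr18:2160339-2160360, minus strand): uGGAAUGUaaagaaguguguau
Both arms of miR-133a are annotated in the Mir133a1 gene, and miR-133c in Mir3582, for which RefSeq also lists the name Mir133c. Mir1 lies next to Mir133a1 on the same strand. The seeds of miR-133a-3p and miR-133b-3p are the same, and these miRNAs differ only at their last base (G22A, with positions counted from the 5′ end of miR-133a-3p). The seeds of miR-133a-5p and miR-133c differ from that seed and from each other. miR-133a-5p equalled miR-133b-5p at 18 of the 21 bases compared when shifted by 1 base.

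The annotated miR-133c sequence is the opposite strand of miR-133a-3p. The reverse complement of miR-133a-3p is printed with the part identical to miR-133c in capitals.
reverse complement of miR-133a-3p: CAGCUGGUUGAAGGGGACCAAa
These 21 of 22 bases cover the whole of miR-133c. In every library the count of miR-133c lay between 98.6% and 99.2% of that of miR-133a-3p, with a median of 98.8%, although the counts themselves spanned 401373 to 1648106 for miR-133a-3p. The difference between both entries was 3458 to 21539 counts per library. No source used here says whether the reads were assigned by strand, and without strand the reads of miR-133a-3p and miR-133c cannot be told apart. miR-133c was therefore treated as a repeat of the miR-133a-3p measurement and not as independent evidence. Of the 686 entries matched to a mature sequence, 58 pairs shared at least 15 reverse-complementary bases, and in 26 of these the counts agreed within 10% or 2 counts in every library. Among them were let-7f-5p with miR-3596d and miR-125b-5p with miR-3588. No other entry of the table, predicted candidates included, shared its counts with a member.

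**Figure D1:**
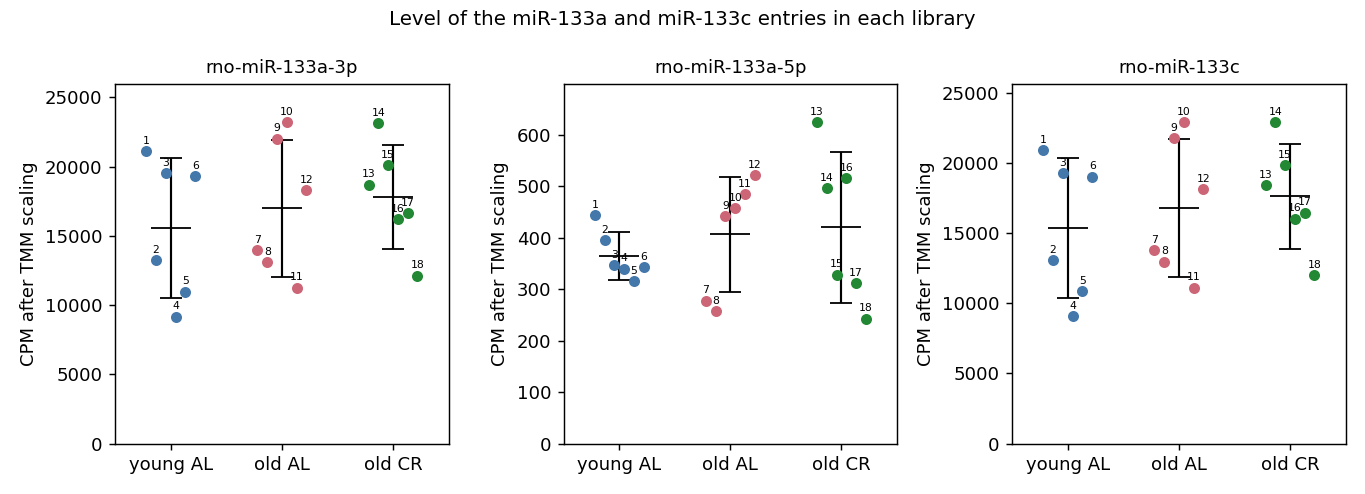
Level of each member in CPM after TMM scaling, with 1 point per library labelled with its replicate number, the group mean as a horizontal line and ± 1 SD as bars (n = 6 per group). The groups overlap in all 3 panels, and the panels of miR-133a-3p and miR-133c are nearly the same picture.

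miR-133a-3p was among the most counted miRNAs of the muscle in all 3 groups. Levels are given as CPM, counts per 1000000 of a library size scaled with TMM, which corrects for a few very abundant miRNAs taking a varying share of the counts. miR-133a-3p ranked 4 to 9 among the 763 known miRNAs of each library, miR-133c 5 to 10 and miR-133a-5p 46 to 60. The members are 21 or 22 bases long, so that length hardly enters a comparison between them. In bulk tissue, fewer cells of a type and less RNA per cell cannot be told apart.

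The level of miR-133a-3p in young AL ranged from 9175 CPM over a median of 16279 CPM to 21142 CPM. In old AL the lowest, median and highest levels were 11257, 16148 and 23202 CPM. In old CR they were 12133, 17659 and 23150 CPM. Young AL replicates 1, 3 and 6 were high and replicates 2, 4 and 5 low, and each old group also held both high and low libraries. The mean level was 15567 ± 5060 CPM in young AL, against 16978 ± 4959 CPM in old AL and 17813 ± 3763 CPM in old CR (± SD of 6 rats). No neighbours in this order differed by more than 1 SD. Over all 18 libraries the highest level was 2.53-fold the lowest, which was more than any difference between group means.

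The 5′ arm was counted far less. miR-133a-5p, the usually less abundant product of the hairpin, ranged from 315 CPM over a median of 345 CPM to 444 CPM in young AL. In old AL its lowest, median and highest levels were 257, 450 and 522 CPM. In old CR they were 243, 412 and 624 CPM. All young AL levels lay inside the range of either old group, with 2 old AL libraries below and 3 above every young AL library, and likewise 2 and 3 in old CR. The mean was 364 ± 47.0 CPM in young AL, against 407 ± 112 CPM in old AL and 420 ± 147 CPM in old CR (n = 6 rats a group, ± SD). The SD was 12.9% of the mean in young AL, against 27.4% in old AL and 35.0% in old CR, a difference in spread that was not tested. When library totals replaced TMM, the SD was 13.0%, 24.6% and 11.2% of the mean, so that the wide spread in old CR depended on the scaling.

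miR-133c followed miR-133a-3p in each group. Its mean was 15377 ± 4987 CPM in young AL, against 16783 ± 4895 CPM in old AL and 17617 ± 3712 CPM in old CR (n = 6 rats a group, ± SD). The counts of miR-133a-3p and miR-133c were left as deposited, as separate entries.

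With library totals in place of TMM, the order of the groups changed. miR-133a-3p then averaged 16172 ± 6008 CPM in young AL, against 18842 ± 8011 CPM in old AL and 16630 ± 4234 CPM in old CR (n = 6 rats a group, ± SD). miR-133a-5p then averaged 375 ± 48.8 CPM in young AL, against 421 ± 104 CPM in old AL and 371 ± 41.8 CPM in old CR. Old AL was highest for both on this scale, while old CR was highest after TMM, and neither order exceeded the spread between rats.

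The miR-1 family (miR-1, miR-1b, miR-3571 and 1 predicted candidate), the main miRNAs of striated muscle, made up 60.7% to 86.8% of all counts in a library. Total counts ran from 34940346 to 83110905 per library, and TMM factors from 0.639 in old AL replicate 11 to 2.14 in old AL replicate 7. Young AL replicates 1 and 2 carried library numbers 19 and 20, apart from the numbers 3 to 18 of the rest, and no batch was labelled. Markers of striated muscle were abundant in every library, with a summed level of 55910 to 167460 CPM over 11 entries, of which 1 (miR-208a-5p) was at 0 in all libraries.

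The comparison of old AL with young AL asks what changed with age on the same diet, and no member passed the test. miR-133a-3p was 1.09-fold the young level, a log2 fold change of 0.12 ± 0.274 (SE) with an edgeR adjusted p of 0.873. Its 95% interval ran from -0.48 to 0.72, so that a rise of up to 1.64-fold or a fall of up to 1.39-fold lay inside it. miR-133a-5p had a log2 fold change of 0.17 ± 0.206 (SE), a 95% interval of -0.28 to 0.62 and an edgeR adjusted p of 0.710. miR-133c gave 0.12 ± 0.274 (SE) with an edgeR adjusted p of 0.873, which repeats miR-133a-3p. To be called, an entry had to reach an adjusted p of 0.05 or less together with a 1.5-fold difference. By this rule 3.28% of the 732 entries tested were called, 24 in number, and 0 of the 3 members. None of the 3 had an unadjusted p under 0.05 either, while 171 of all entries did. DESeq2 called none of the 3 members. miR-133a-3p was the higher in old AL in 22 of 36 pairs of an old AL and a young AL library, and miR-133a-5p in 23 of 36.

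The comparison of old CR with young AL combines age and diet, and again no member passed the test. miR-133a-3p had a log2 fold change of 0.19 ± 0.227 (SE), with a 95% interval of -0.30 to 0.69 and an edgeR adjusted p of 0.703. miR-133a-5p had a log2 fold change of 0.20 ± 0.218 (SE), with a 95% interval of -0.27 to 0.68 and an edgeR adjusted p of 0.651. miR-133c had a log2 fold change of 0.19 and an edgeR adjusted p of 0.700. Here 9.32% of the 730 entries were called, and 0 of the 3 members. miR-133a-3p was higher in old CR in 22 of 36 pairs of libraries, and miR-133a-5p in 19 of 36.

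The comparison of old CR with old AL asks what the diet changed in old rats, and no member passed the test. miR-133a-3p had a log2 fold change of 0.07 ± 0.211 (SE), with a 95% interval of -0.39 to 0.54 and an edgeR adjusted p of 0.960. miR-133a-5p had a log2 fold change of 0.05 ± 0.262 (SE), with a 95% interval of -0.52 to 0.62 and an edgeR adjusted p of 0.986. miR-133c had a log2 fold change of 0.08 and an edgeR adjusted p of 0.960. The share of entries called was 0.272% of 736, which is 2 entries, and again 0 of the 3 members. The sign of these small differences turned with the scaling. With library totals all 3 members had a log2 fold change of -0.18, while the median of all entries moved from 0.01 to -0.27. These 3 comparisons share groups, so that their values for a member are not independent of each other.

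**Figure D2:**
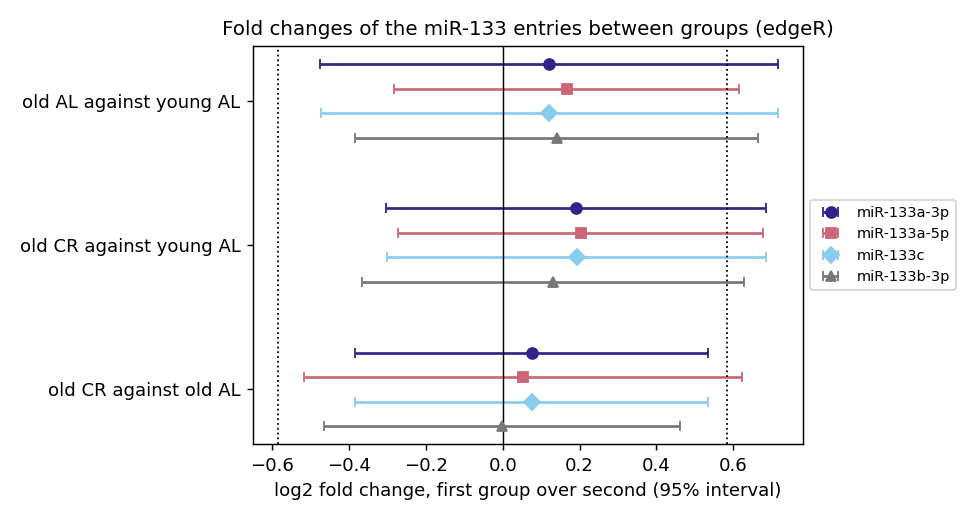
Log2 fold change of the 3 members and of miR-133b-3p in each comparison, as points with 95% intervals from edgeR (6 against 6 libraries). Dotted lines mark a fold change of 1.5 in either direction. Every interval includes 0, and the 3 intervals of miR-133a-5p are -0.28 to 0.62, -0.27 to 0.68 and -0.52 to 0.62.

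No other miRNA of striated muscle was called. The list held 15 entries of miR-1, miR-1b, miR-3571, miR-133b, miR-206, miR-208a, miR-208b, miR-499 and miR-486, of which 12 passed the filter. Among the 12, miR-1-5p, miR-133b-5p, miR-208b-5p and miR-499-3p had few counts, with group means of 0.667 to 8.83 per library. They could hardly be called, and the list medians include them. In each of the 3 comparisons 0 of 12 were called in either direction by edgeR, beside 3.28%, 9.32% and 0.272% of all entries. An unadjusted p under 0.05 was found for 0 of 12, beside 171 of 732, 186 of 730 and 88 of 736 entries, or 23.4%, 25.5% and 12.0%. DESeq2 also called 0 of 12 in each, with 1, 1 and 0 entries at an unadjusted p under 0.05. The median log2 fold change of the list was 0.11 in old AL against young AL, -0.04 in old CR against young AL and -0.17 in old CR against old AL, beside 0.06, 0.08 and 0.01 over all entries tested. miR-133b-3p, which has the seed of miR-133a-3p, had log2 fold changes of 0.14, 0.13 and 0.00 in the same order. miR-1-3p had log2 fold changes of -0.21, 0.24 and 0.48, with edgeR adjusted p of 0.735, 0.564 and 0.530. miR-486, a miRNA of muscle and red blood cells, had the lowest p of the list in old AL against young AL, with a log2 fold change of 0.62 ± 0.310 (SE) and an edgeR adjusted p of 0.249. miR-208b-3p, which is encoded in a slow myosin gene, had a log2 fold change of -1.27 ± 0.678 (SE) in old CR against young AL with an edgeR adjusted p of 0.262. miR-499-5p, another miRNA of a myosin gene, had log2 fold changes of 0.28, -0.51 and -0.78, with edgeR adjusted p of 0.855, 0.579 and 0.646.

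Ratios of entries within a library do not depend on scaling, and they were compared between groups with two-sided exact permutation tests over all arrangements of 6 against 6 libraries. The ratio of miR-133a-5p to miR-133a-3p compares the arms of the hairpin. It was 2.53% ± 0.777 in young AL, against 2.52% ± 0.946 in old AL and 2.36% ± 0.720 in old CR (n = 6 rats a group, ± SD). In young AL it ran from 1.78% to 3.71%, in old AL from 1.96% to 4.31% and in old CR from 1.63% to 3.34%. Old AL replicates 7 to 10 lay close together, between 1.96% and 2.00%, while replicates 11 and 12 were at 4.31% and 2.85%. The groups overlapped, and the difference in mean log2 ratio was -0.02, -0.10 and -0.07 in the 3 comparisons, with exact permutation p of 0.952, 0.729 and 0.771. The 5′ arm of miR-133b was nearly absent from the counts, since miR-133b-5p had 0 to 31 counts in a library while miR-133b-3p had 54574 to 166096.

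miR-133a-3p stood at 9.08 ± 1.19 times the count of miR-133b-3p in young AL, against 8.95 ± 0.700 times in old AL and 9.63 ± 0.734 times in old CR (n = 6 rats a group, ± SD). This was the steadiest of the ratios to another miRNA, with a highest value 1.48-fold the lowest over the 18 libraries. Its lowest exact permutation p was 0.123, for old CR against old AL, where the mean log2 ratio was higher by 0.11. The ratio of miR-133a-3p to miR-1-3p, which are known to share primary transcripts, was the most variable, with a highest value 4.49-fold the lowest. It was 17.8% ± 8.49 in young AL, against 24.0% ± 9.84 in old AL and 17.3% ± 5.85 in old CR (n = 6 rats a group, ± SD). The difference in mean log2 ratio was 0.45 in old AL against young AL, 0.04 in old CR against young AL and -0.42 in old CR against old AL, with exact permutation p of 0.288, 0.926 and 0.247. These values depended on how the miR-1 family was counted. With miR-1-3p and miR-1b summed, and likewise miR-133a-3p and miR-133c, the differences were 0.22, 0.07 and -0.15, with exact permutation p of 0.604, 0.818 and 0.710. miR-3571 is annotated as the opposite strand of miR-1-3p over 21 bases, so that without strand reads of these bases cannot be told apart either. Unlike those of miR-133c and miR-133a-3p, their counts were far from equal, with miR-1-3p at 25.7% to 41.1% of miR-3571. Over the 12 tests of 4 ratios, the ratio of miR-133c to miR-133a-3p included, every Benjamini-Hochberg adjusted p of these exact tests was at least 0.914.

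**Figure D3:**
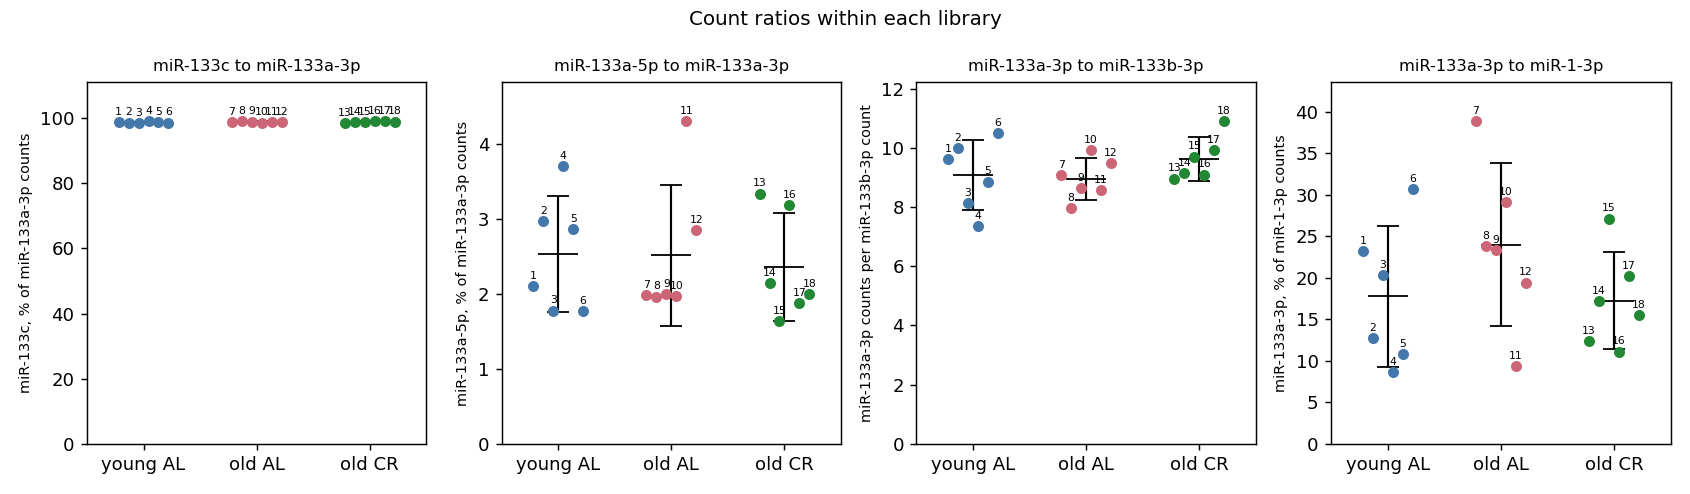
Count ratios within each library, with 1 point per library labelled with its replicate number, the group mean as a line and ± 1 SD as bars (n = 6 per group). miR-133c stays at 98.6% to 99.2% of miR-133a-3p, whereas miR-133a-3p spans 8.66% to 38.9% of miR-1-3p.

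The ratio of miR-133a-5p to miR-1-3p was added after the values had been seen. It was 0.401% ± 0.0948 in young AL, against 0.540% ± 0.131 in old AL and 0.378% ± 0.0463 in old CR (n = 6 rats a group, ± SD). The lowest old AL library was at 0.403% and the highest old CR library at 0.443%, so that the groups overlapped slightly. The mean log2 ratio of old CR lay below that of old AL by a difference of -0.49, with an exact permutation p of 0.00649, which after adjustment over the 15 tests of 5 ratios was 0.0974 and did not pass 0.05. With miR-1-3p and miR-1b summed this difference was -0.22, with an exact permutation p of 0.357 and an adjusted p of 0.918. In old AL against young AL the difference was 0.43, with an exact permutation p of 0.0433 and an adjusted p of 0.325, and with miR-1-3p and miR-1b summed it was 0.20 (exact permutation p of 0.429). In old CR against young AL it was -0.06, with an exact permutation p of 0.701. In CPM of library totals miR-1-3p was at 95445 ± 12047 in young AL, against 78103 ± 5482 in old AL and 98609 ± 9496 in old CR (n = 6 rats a group, ± SD), and the part of this denominator in the ratio was not tested.

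Across the 18 libraries the level of miR-133a-3p went together with that of miR-133b-3p. Pearson's r of log2 CPM was 0.94 and Spearman's rho 0.94, with a permutation p of 1e-05 for each, the smallest that 100000 resamples can give, and adjusted p of 7e-05 for both over 7 relations. Without the 2 libraries farthest from the median, r was 0.94. Within young AL, old AL and old CR it was 0.92, 0.97 and 0.98, and with library totals 0.96. These miRNAs differ by a single base at the end, and the part of reads that lack this base in the relation was not tested.

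The arms of miR-133a went together less. For miR-133a-3p and miR-133a-5p, r was 0.45 and rho 0.42, with permutation p of 0.0600 and 0.0832 and adjusted p of 0.0840 and 0.0970, and r was 0.43 without the 2 farthest libraries. Within groups r was 0.50, 0.42 and 0.59, and with library totals 0.65. miR-133a-3p and miR-1-3p had an r of 0.06 and a rho of -0.09, with permutation p of 0.801 and 0.716, and r was 0.20 without the 2 farthest libraries, -0.59, 0.19 and 0.37 within groups and -0.34 with library totals. miR-133a-5p and miR-133b-3p had an r of 0.50 and a rho of 0.53, with permutation p of 0.0373 and 0.0271, of which only that of rho stayed under 0.05 after adjustment (0.0380, against 0.0653 for r). Without the 2 farthest libraries r was 0.36, within groups 0.41, 0.33 and 0.72, and with library totals 0.66.

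miR-133a-5p and miR-1-3p had an r of 0.73 and a rho of 0.69, with adjusted permutation p of 9.8e-04 and 0.00696, and r was 0.72 without the 2 farthest libraries. This relation rested on the scaling, since r was -0.25 with library totals. Within young AL, old AL and old CR r was 0.05, 0.88 and 0.94, a difference between groups that was not tested.

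**Figure D4:**
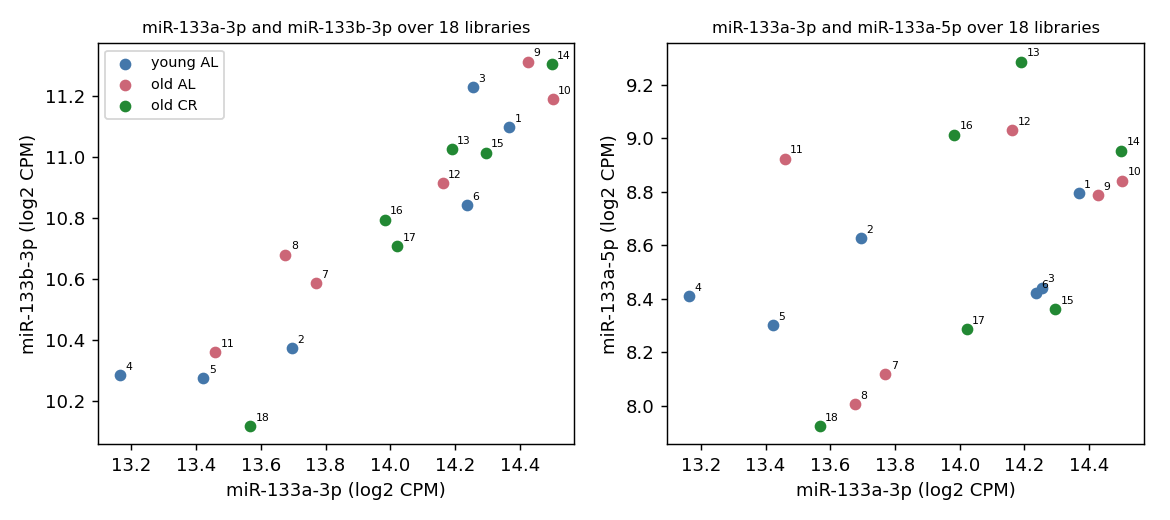
Level of miR-133b-3p (left) and of miR-133a-5p (right) against that of miR-133a-3p, all in log2 CPM after TMM, with 1 point per library coloured by group and labelled with its replicate number. The points of the left panel lie close to a line (r = 0.94), those of the right panel scatter widely (r = 0.45).

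By pattern over the 18 libraries, the known miRNAs most like miR-133a-3p, with the members themselves left out, were miR-133b-3p (r = 0.94), miR-324-3p (0.92), miR-181b-5p (0.84), miR-106b-3p (0.84) and miR-664-3p (0.82). Their mean levels differed widely, at 1823, 2.64, 112, 32.0 and 5.49 CPM in the same order. They were ranked by Pearson's r of log2 CPM among 272 miRNAs with at least 100 counts on average, whose median r was 0.06, and miR-1-3p was at rank 136. Of these 5, 3 were still among the top 5 by Spearman's rho, and 3 with library totals. The miRNAs most like miR-133a-5p were miR-30c-5p (r = 0.86), miR-27b-3p (0.82), miR-1b (0.80), miR-3571 (0.80) and miR-30a-3p (0.79), with a median r of 0.10 over the 272. With library totals r was -0.51 for miR-1b and -0.61 for miR-3571, and only 1 of the 5 was still among the top 5. The lists for both arms had no miRNA in common. These values are descriptions, since all entries of a library share its depth and scaling.

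The ratio of the miR-133a arms moved with the composition of the counts, in which the entries of the miR-1 family may overlap. Relations added after the values had been seen gave an r of 0.56 and a rho of 0.67 between the share of the miR-1 family and the log2 ratio of miR-133a-5p to miR-133a-3p, with adjusted permutation p of 0.0268 and 0.00761. Without the 2 farthest libraries r was 0.57, and within groups 0.32, 0.69 and 0.78. With the log2 total count of the library, the log2 ratio had an r of 0.43 and a rho of 0.59, with adjusted permutation p of 0.0876 and 0.0218. Without the 2 farthest libraries r was 0.71, and within groups 0.28, 0.45 and 0.89. The part of depth and composition in the arm ratio was not tested further.

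Markers of other cell types were set against both arms of miR-133a after the values had been seen, over all 9 marker lists, with p adjusted over the 18 relations of 9 lists and 2 arms. The lists farthest from 0 for miR-133a-3p were those of vessel cells. The endothelium list (both arms of miR-126a) summed to 4548 to 8098 CPM in young AL, against 3831 to 7247 CPM in old AL and 3980 to 6834 CPM in old CR, and the smooth muscle list (miR-143 and miR-145, 4 entries) to 5210 to 10142, 4943 to 10064 and 4916 to 8986 CPM. Against miR-133a-3p the endothelium list had an r of -0.81 and a rho of -0.86, with adjusted permutation p of 0.00153 and 1.8e-04, and the smooth muscle list an r of -0.76 and a rho of -0.75, with adjusted permutation p of 0.00258 and 0.00588. Without the 2 farthest libraries r was -0.70 and -0.66. Within young AL, old AL and old CR, r was -0.91, -0.71 and -0.86 for the endothelium list and -0.99, -0.66 and -0.48 for the smooth muscle list. With library totals r was 0.16 and 0.11, so that the inverse relations were seen after TMM scaling and not with totals. Against miR-133a-5p these lists had an r of -0.40 and -0.09.

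The striated muscle marker list held 11 entries of miR-1, miR-206, miR-208a, miR-208b, miR-499 and miR-486, without miR-1b, miR-3571 and miR-133b. For miR-133a-5p this list had an r of 0.77 and a rho of 0.72, with adjusted permutation p of 0.00153 and 0.00588. Without the 2 farthest libraries r was 0.72, and within young AL, old AL and old CR it was -0.05, 0.93 and 0.97. With library totals r was 0.20, and against miR-133a-3p this list had an r of 0.03. Most of the summed level was miR-1-3p, whose median was 98708, 87046 and 108273 CPM in young AL, old AL and old CR. The median of the list was 106612, 94481 and 114183 CPM. Its relation with miR-133a-5p is thus largely that of miR-1-3p given above and not separate evidence. The other 6 lists had an r of -0.31 (erythrocyte), -0.21 (leukocyte), -0.22 (nerve), -0.13 (fibroblast), 0.37 (liver) and 0.14 (epithelium) with miR-133a-3p, and of -0.29, -0.53, -0.14, 0.15, 0.13 and -0.12 with miR-133a-5p, and none of these passed an adjusted permutation p of 0.05. The part of other cell types in the levels of miR-133a was not tested.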

How the data were processed

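Small RNA libraries were made by the authors from rat gastrocnemius with a strand-specific NEBNext kit, trimmed with cutadapt 1.2.1 and Sickle, and assigned to known miRNAs and candidates predicted by miRDeep2. The submitters' processing notes also name Bowtie2 2.4.0 and the build Rnor_6.0. The deposited table holds raw counts, without normalization, for 763 known miRNAs and 146 predicted candidates, and 0 of its columns belonged to other samples. How strand and reads with several matches were treated is not given in the sources used here. Coordinates and sequences come from RefSeq (GRCr8).

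Groups were taken from the sample labels. Each pair of groups, 12 libraries, was fitted on its own after TMM scaling, with the two-sided quasi-likelihood test of edgeR 4.0.16 (R 4.3.3) and robust estimation. The test covered entries reaching 10 counts over those libraries, with Benjamini-Hochberg adjustment across the table. Calls required an adjusted p of 0.05 or less and a 1.5-fold difference. A prior count of 0.5 was used on the log2 scale. DESeq2 1.42.0, other scalings and filters, and the removal of libraries were tried as alternatives. Ratios and relations used permutation tests in scipy 1.17.1. The fit was tested on simulated data with changes larger than those of the members, which says little about differences of their size.

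The miRNAs named are the members, miR-133b, the 15 entries of the tested striated muscle list, the marker lists, entries sharing counts with a member, and the 5 known miRNAs most correlated with each arm. miRNAs named as examples of other opposite-strand pairs were picked after their values were seen. The members and lists were chosen with earlier results of these data known. The ratio of miR-133a-5p to miR-1-3p and the relations with library composition, total count and marker lists, and the summing of miR-1-3p and miR-1b in that ratio, were added after the values had been seen. The paper's target predictions and cell culture experiments are not analysed here.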

Additional observations from a re-analysis of the deposited data

How the results depend on the processing

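No member was called in any comparison under any of the 219 alternative values. They include those of miR-133c, which repeat miR-133a-3p, and those with adjusted p as the only threshold, which reuse the main fit. Of the 219, 20 had the opposite sign to the reported value and the rest the same. The lowest edgeR or DESeq2 adjusted p was 0.338. For old CR against old AL, the log2 fold change of miR-133a-3p, miR-133a-5p and miR-133c was -0.032, -0.075 and -0.031 with upper-quartile factors and -0.18, -0.18 and -0.18 with library totals. For old CR against young AL, that of miR-133a-5p was -0.013 with library totals. The ratio of miR-133a-5p to miR-133a-3p in old CR against old AL was 0.052 as a difference of medians, and that of miR-133a-3p to miR-133b-3p in old AL against young AL 0.047 without young AL replicates 1 and 2. The later ratio of miR-133a-5p to miR-1-3p in old CR against young AL was 0.015 as a difference of medians, 0.0043 without those libraries and -0.13 to 0.033 with each library left out in turn. With miR-1-3p and miR-1b summed, the ratios to miR-1-3p in old AL against young AL and in old CR against old AL shrank to 0.22 and -0.15 for miR-133a-3p and to 0.20 and -0.22 for miR-133a-5p. The cause of these changes was not tested.

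With each library left out in turn, the log2 fold change of miR-133a-3p ranged from -0.0070 to 0.25 in old AL against young AL, from 0.08 to 0.30 in old CR against young AL and from -0.026 to 0.18 in old CR against old AL. miR-133a-5p ranged from 0.09 to 0.28, from 0.06 to 0.33 and from -0.10 to 0.17, and miR-133c from -0.0057 to 0.25, from 0.08 to 0.30 and from -0.026 to 0.18. The sign turned for miR-133a-3p in old AL against young AL without young AL replicate 4 (-0.0018) or 5 (-0.0070), and in old CR against old AL without old AL replicate 11 (-0.026) or old CR replicate 14 (-0.015). The log2 ratio of miR-133a-5p to miR-133a-3p ranged from -0.19 to 0.10, from -0.21 to 0.023 and from -0.18 to 0.10. That of miR-133c to miR-133a-3p ranged from -0.00013 to 0.0017, from 0.00081 to 0.0024 and from 0.00022 to 0.0016. That of miR-133a-3p to miR-1-3p ranged from 0.27 to 0.70, from -0.14 to 0.22 and from -0.66 to -0.25, and that of miR-133a-3p to miR-133b-3p from -0.073 to 0.030, from 0.033 to 0.14 and from 0.07 to 0.14. None passed the threshold. For miR-133a-5p to miR-1-3p in old CR against old AL the difference ranged from -0.57 to -0.38, with exact permutation p of 0.00433 to 0.0130 and adjusted p of 0.0649 to 0.195.

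Counts of calls over the table moved more. For old AL against young AL they were 24 with edgeR, 84 with DESeq2, 0 with library totals, 37 with edgeR's own expression filter, 38 in a single fit, 53 among known miRNAs and 6 with shared entries counted once, and 9 to 20 with 1 library left out. For old CR against young AL they were 68 with edgeR, 109 with DESeq2 and 45 to 67 with 1 library left out. For old CR against old AL they were 2 with edgeR, 19 with DESeq2, 0 with upper-quartile factors, library totals, no robust estimation, known miRNAs or shared entries counted once, and 0 to 3 with 1 library left out. Counting shared entries once drops miR-133c and gives no value for it. No paired analysis was possible because the groups compared share no replicate numbers. With 6 rats a group, the 95% interval of miR-133a-3p in old AL against young AL reached 1.64-fold, so that a missing call does not show equal levels.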

Other observations

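The summed levels of the marker lists not given above were as follows. The erythrocyte list (miR-451 and miR-144, 4 entries) summed to 3.31 to 10.1 CPM in young AL, 6.53 to 11.7 CPM in old AL and 3.48 to 9.53 CPM in old CR. The leukocyte list (miR-142, miR-150, miR-223 and miR-155) summed to 125 to 172 CPM, 111 to 609 CPM and 109 to 241 CPM in the same order, and the fibroblast list (miR-199a and miR-214) to 1016 to 1695 CPM, 1153 to 1628 CPM and 1136 to 2276 CPM. The liver list (miR-122) summed to 0.570 to 38.7 CPM in young AL, 49.2 to 777 CPM in old AL and 102 to 187 CPM in old CR. The nerve list (miR-9a and miR-124) summed to 7.03 to 21.9 CPM, 11.8 to 37.6 CPM and 20.1 to 164 CPM, and the epithelium list (the miR-200 family, miR-203a and miR-205) to 23.3 to 69.2 CPM, 44.5 to 242 CPM and 32.6 to 1292 CPM.

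Of 24 sets of 6 libraries examined for a single far value, by Dixon's test on the 3 members and 5 ratios in each group, 0 exceeded the critical value.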
